A study of Mus musculus with 4 samples.

Results

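Of the 8251 genes that the array named, 5 were followed here through the supply and reception of GABA: Gad1, Gad2, Slc32a1, Gabra2 and Gabbr1. They were chosen by gene symbol, and each was read by 1 probe set, a group of short probes for 1 transcript. The samples were total RNA from hippocampal area CA1 of young male C57BL/6J mice, an inbred strain. The mice were controls that an experimenter had handled and that had no further treatment. Their RNA was taken 1, 2, 4 or 6 h after other mice, not analysed here, had had their last shock, with 1 sample and 1 array for each hour. The sources used here do not state the number of mice behind a sample, so the spread between arrays may be biological or technical. Signals are the deposited probe set intensities, a linear scale on which only the same probe set can be compared between arrays.

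GABA is the main inhibitory transmitter of the forebrain. In CA1 it is made by interneurons, from glutamate, by the glutamate decarboxylases GAD67 (Gad1) and GAD65 (Gad2), and the vesicular transporter VGAT (Slc32a1) loads it into synaptic vesicles. Pyramidal cells and interneurons receive it through GABA-A receptors, which are chloride channels that include the α2 subunit Gabra2, and through GABA-B receptors, which act through G proteins and need the subunit Gabbr1 to bind GABA. Since whole CA1 tissue was measured, fewer cells of a type and less RNA per cell cannot be told apart.

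The 5 genes did not behave alike on the 4 arrays, and only Gad1 was steady. Slc32a1 was lowest at 2 h, outside the range of the other hours. Gabbr1 and Gabra2 were highest at 2 h, but close to the next array. Gad2 was dim and was below the floor at 1 h. With 1 array an hour, differences between hours could not be checked against replicates, and the SD over the 1, 4 and 6 h arrays is given as the only measure of spread.

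**Figure D1:**
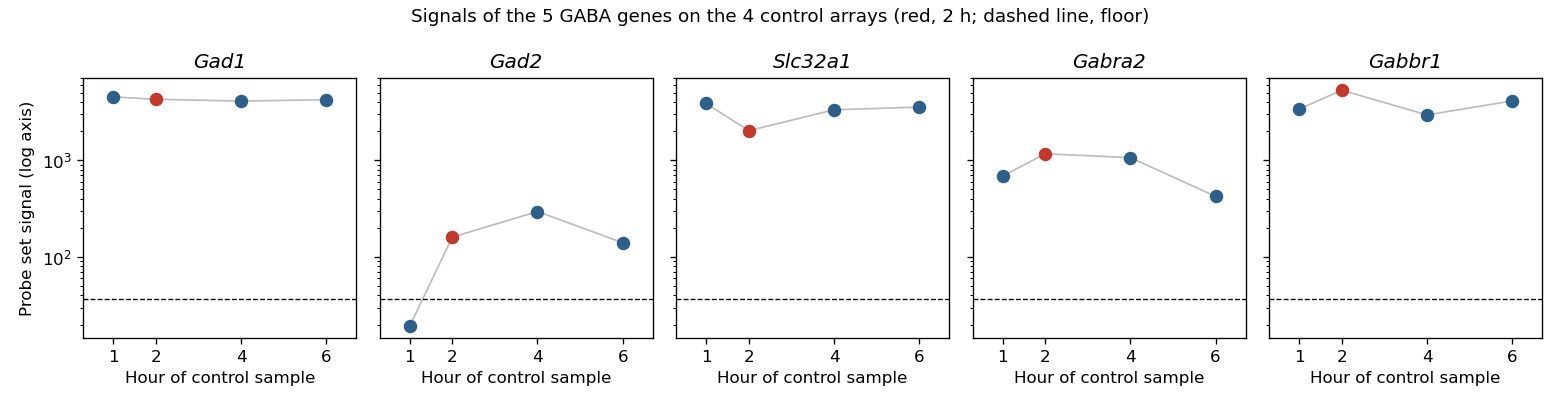
Probe set signal (log axis) against the hour of the control sample, 1 panel for each of the 5 genes and 1 point for each array, with 2 h in red and the floor of 36.9 as a dashed line. Gad1 is level, Slc32a1 dips at 2 h, and Gad2 lies under the floor at 1 h. Heights cannot be compared between panels, because each probe set binds its target with its own strength.

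The 2 h array also stood apart in its quality measures. For the control transcript Gapdh, the signal at the 3′ end over that at the 5′ end was 1.08 at 2 h and 3.62 to 4.10 on the other arrays. That of pyruvate carboxylase was 2.43 at 2 h and 4.60 to 5.15 on the others. For beta-actin the gap was smaller, with 1.72 at 2 h and 2.27 to 2.93 on the others. On each of these transcripts it was thus the 1, 4 and 6 h arrays that leaned more to the 3′ end. Those arrays are the reference for each difference at 2 h. Relative to the mean of the 4 arrays, the 9 spiked-in bacterial and phage controls stood at 0.715 at 2 h and at 1.02 to 1.14 on the others. Among all 7233 probe sets bright enough to be tested, 9.97% had a 2 h signal at least 1.5-fold outside the range of the 3 other arrays. For the 1, 4 and 6 h arrays, each against its 3 others, these shares were 4.27%, 4.22% and 4.74%. The part of these array differences in any result at 2 h was not tested.

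Gad1, whose enzyme makes most of the brain's GABA, had signals of 4518, 4263, 4088 and 4219 at 1, 2, 4 and 6 h. The mean was 4272 ± 180 (SD, n = 4), a coefficient of variation of 4.22%. The highest array was 1.11 times the lowest, and 2.10% of all probe sets tested spanned a narrower range. The 2 h signal lay between those of the other hours, and on the log2 scale it differed from their mean by -0.0027 (SD over those 3 arrays, 0.07). This was the array with the lowest Gapdh ratio, and the Gad1 signal there was within the range of the others.

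Gad2, the decarboxylase of nerve terminals, gave 19.2, 160, 295 and 140.5. The 1 h array was low, below the floor of 36.9 under which signals were not ranked, and the 4 h array was high. On the 2 h array Gad2 was neither highest nor lowest. Its mean on the log2 scale corresponds to a signal of 125, just above the limit of 116.6 for testing. On the 1, 4 and 6 h arrays alone the mean would fall just under that limit. Its 2 h signal was 0.48 above the mean log2 of the other arrays, against an SD of 1.52. Without the 1 h array this difference was -0.35, so its sign rested on that array. Of the 5 genes, Gad2 had the widest range, with the highest array at least 7.99 times the floored 1 h value, and its level is the least certain.

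Slc32a1, the vesicular transporter of GABA, gave 3861, 2019, 3318 and 3543. The 1, 4 and 6 h arrays were close together, with a mean of 3574 ± 273 (SD, n = 3) and a highest value 1.16 times the lowest. The 2 h array was low: it lay 1.91-fold below 1 h, 1.64-fold below 4 h and 1.75-fold below 6 h. On the log2 scale the difference from the mean of the 3 others was -0.82, against an SD of 0.11 over those 3. Without the 1, 4 or 6 h array in turn it was -0.76, -0.87 and -0.83.

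The low Slc32a1 signal at 2 h stood beside a level one of Gad1, which is expressed by the same cells. The Slc32a1 signal at 2 h was outside the other arrays by 1.64-fold, while that of Gad1 was inside their range. Among probe sets tested, 4.24% lay at least 1.5-fold below every other array at 2 h and 5.72% at least 1.5-fold above. Among the 2411 brightest, the upper part of the range where Slc32a1 and 3 of the 4 other genes lie, 7.42% were outside in either direction. A departure of this kind at 2 h was therefore found for many transcripts besides Slc32a1.

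Gabra2, the α2 subunit found at inhibitory synapses on the axon initial segment of pyramidal cells, gave 687, 1164, 1063.5 and 422.5. The 2 and 4 h arrays were high and close to each other, 1.09-fold apart, and the 6 h array was low. Gabra2 was thus not set apart at 2 h: it was the 6 h array that lay at least 1.5-fold outside the rest. Its 2 h signal was 0.78 above the mean log2 of the other arrays, but the SD of those 3 was 0.67. With the 4 h array left out, 2 h stood 1.70-fold above the next array.

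Gabbr1, the GABA-binding subunit of the GABA-B receptor, gave 3377, 5293, 2939 and 4102. The 2 h array was the highest, 1.29-fold above the 6 h array, and the 1, 4 and 6 h arrays spanned 1.40-fold. The log2 difference at 2 h was 0.62 against an SD of 0.24. This gap did not reach 1.5-fold beyond the range of the others, but with the 6 h array left out 2 h stood 1.57-fold above the next. Of all probe sets tested, 11.5% lay further above the other arrays at 2 h than Gabbr1 on this measure.

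**Figure D2:**
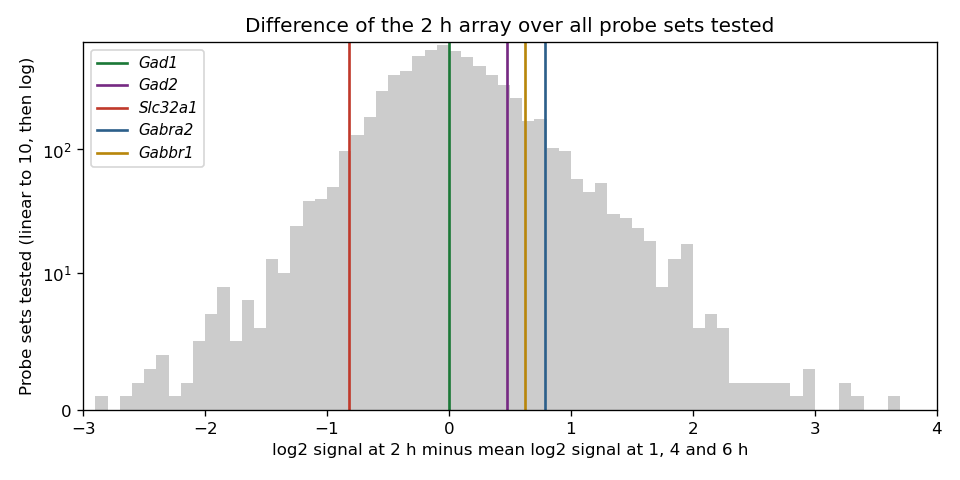
Distribution over 7233 probe sets of the log2 signal at 2 h minus the mean log2 signal at 1, 4 and 6 h, with a vertical line for each of the 5 genes. The counts are on an axis that is linear to 10 and then logarithmic. Slc32a1 lies at -0.82 on the low side, Gad1 at the centre, and Gad2, Gabbr1 and Gabra2 between 0.48 and 0.78 on the high side.

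Counted over the 5 genes, 1 lay at least 1.5-fold outside the other arrays at 2 h, namely Slc32a1, beside 9.97% of all probe sets tested. The same count was 1 at 1 h (Gad2, low), 1 at 4 h (Gad2, high) and 1 at 6 h (Gabra2, low). The 2 h count was 2 without the 4 h array (Gabra2 added) or without the 6 h array (Gabbr1 added), beside 14.8% and 14.2% of all probe sets. Only Gad1 kept its 4 signals within a 1.5-fold range, 1 of 5, beside 46.4% of all probe sets and 68.6% of the 2411 brightest. Over the 1, 4 and 6 h arrays alone, 3 of 5 did so (Gad1, Slc32a1 and Gabbr1), beside 67% of all. Gad2 entered these counts with its 1 h signal raised to the floor. By Dixon's ratio, the gap of an extreme array to the next over the whole range, 0 of the 5 genes had an outlying array, beside 6.75% of all probe sets.

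A straight trend over the hours was tested with limma across all 7233 probe sets, with 2 residual degrees of freedom. It called 0% of them, and 196 had an unadjusted p under 0.05, none of them a probe set of the 5 genes. The slopes of the 5 genes ran from -0.16 ± 0.11 log2 per hour (SE) for Gabra2 to 0.33 ± 0.21 for Gad2. Gad1, Slc32a1 and Gabbr1 had slopes of -0.02, 0.05 and -0.01. The adjusted p by limma was 0.9996 for each of the 5 genes. A straight line cannot judge a departure at 2 h alone.

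The genes around these 5 in the GABA pathway were described from 8 lists by role. Of 47 genes listed, 27 had a probe set, and 21 of their 31 probe sets, from 19 genes, were bright enough to be tested. At 2 h, 5 of the 21 were at least 1.5-fold outside the other arrays, 4 high and 1 low, beside 9.97% of all probe sets. The median log2 difference at 2 h was 0.26 over the 21 probe sets, beside -0.01 over all probe sets tested. Over the 19 genes, each by its brightest tested probe set, it was also 0.26, with 13 above 0 and 6 below. The 4 high ones came from 3 genes, Kcnj9, Gabarap and Slc12a5, and the low one was Slc32a1. Slc12a5, Gad2, Gabrb2, Gabrg1 and Gabrg3 were above 0 at 2 h and passed the limit only with the 2 h signal in the mean. The median, the 13 above 0 and the place of Slc12a5 among the high ones thus follow in part from the limit. Limma called 0 of the 21 for a trend, and 0 had an unadjusted p under 0.05.

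On the supply side, glutamine synthetase, Glul, an enzyme of astrocytes that provides the precursor glutamine, was read by a pair of tested probe sets. They disagreed at 2 h: one, whose name marks relaxed probe design rules, gave 724, 1006, 781 and 1054, and the other 571, 430, 613 and 580. The GABA transporter Slc6a13 was level, with 328, 332, 366 and 338. The betaine and GABA transporter Slc6a12 was too dim to test, with 16.7 to 54.1.

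Among GABA-A receptor subunits, 5 of 10 genes with a probe set were bright enough to test, and 0 of these 5 lay 1.5-fold outside the others at 2 h. The β1 subunit Gabrb1 gave 5426, 4636.5, 6824 and 5393, lowest at 2 h by 1.16-fold. The β2 subunit Gabrb2 gave 172.5, 228, 45.0 and 108, highest at 2 h by 1.32-fold and low at 4 h, and the γ3 subunit Gabrg3 gave 136, 132, 77.4 and 137, also low at 4 h. The γ1 subunit Gabrg1, at 101, 180, 89.9 and 122, was highest at 2 h by 1.48-fold, just short of the limit. Of the 5 subunits tested, Gabra2, Gabrb2 and Gabrg1 were thus highest at 2 h and Gabrb1 lowest. The median log2 difference at 2 h was 0.78, with 4 above 0 and 1 below. The limit for testing was set on the mean over all 4 arrays. On the 1, 4 and 6 h arrays alone Gabrb2, Gabrg1 and Gabrg3 would fall under it, so these counts follow in part from that choice.

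The other subunits were under the limit for testing, and each was under the floor of 36.9 on at least 1 array. The δ subunit Gabrd, which forms receptors outside synapses, gave 41.7, 95.3, 27.9 and 16.1. Gabra3 gave 59.1 at 2 h and at most 17.4 elsewhere, and Gabrr1 and Gabrr2, subunits best known from the retina, reached 104 at 6 h and 73.5 at 4 h. Gabra6, a subunit of cerebellar granule cells, gave 92.4 at 4 h and at most 13.5 elsewhere on one probe set, but 29.7, 78.0, 19.3 and 114 on the other. None of these 5 subunits was above the floor on all 4 arrays.

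Beside Gabbr1, the GABA-B receptor acts on potassium channels of the Kcnj family. Kcnj9 gave 167, 404, 165.5 and 134 on one probe set and 158, 513, 280 and 236 on the other, which has relaxed design rules. Both were highest at 2 h, by 2.42-fold and 1.83-fold over the next array. Kcnj3 gave 63.7, 157, 95.8 and 132 and was lowest at 1 h. The probe sets of Kcnj6 gave 107, 140, 104 and 33.2, and 101, 140, 203 and 23.8, both lowest at 6 h. Kcnj3 and Kcnj6 were under the limit for testing.

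Of the genes that handle GABA-A receptors, the scaffold gephyrin, Gphn, was level at 746, 793, 785 and 856. Gabarap, which binds the receptor γ2 subunit and also serves autophagy, gave 1043, 3035, 1117.5 and 992. It was high at 2 h alone, 2.72-fold above the next array, while the 3 others lay within 1.13-fold. Its relatives lay within 1.30-fold over the 4 arrays: Gabarapl1 gave 6907.5, 8973, 7383 and 7697, and Gabarapl2 gave 3611, 3692, 3801 and 3508.

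The chloride transporters that set the direction of GABA currents lay on opposite sides of the other arrays at 2 h. The exporter KCC2, Slc12a5, gave 93.3, 468, 78.4 and 168, with 2 h 2.79-fold above the next array. The importer NKCC1, Slc12a2, gave 1250, 657, 952.5 and 1056, with 2 h 1.45-fold below the next array, just short of the limit. Dbi, a peptide that binds GABA-A receptors, gave 5172, 5034, 3767 and 4695. All of these 2 h values come from the array with a Gapdh ratio of 1.08.

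**Figure D3:**
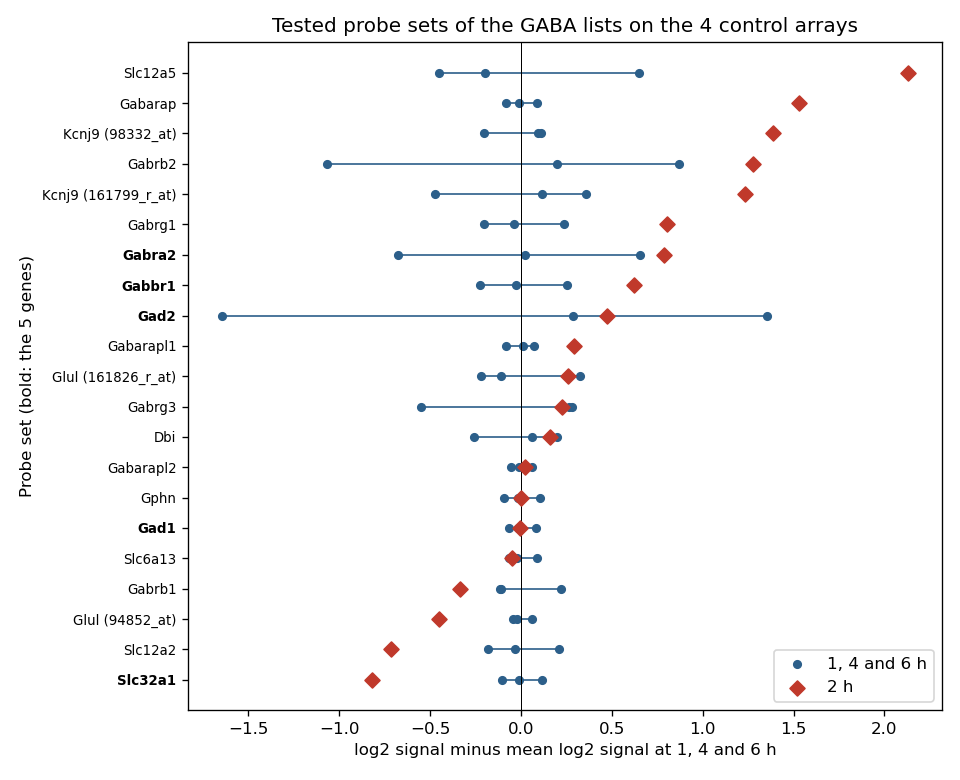
The 21 tested probe sets of the GABA lists, ordered by the 2 h difference. Each row shows the log2 signal of the 1, 4 and 6 h arrays (blue, joined by a line) and of the 2 h array (red diamond), relative to the mean of the 1, 4 and 6 h arrays. Slc32a1 is at the bottom and Slc12a5, Gabarap and Kcnj9 are at the top, with Gad1 and gephyrin near 0.

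Markers of interneurons, the cells that express Gad1 and Slc32a1, are given beside Slc32a1. Of 20 marker genes, 19 had a probe set and 15 were tested. The signals summed over the 15 were 38296, 36378, 37520 and 36282 at 1, 2, 4 and 6 h. The largest parts of each sum were Cck and Sst, which went opposite ways at 2 h. Their median log2 difference at 2 h was -0.13, with 10 genes below 0 and 5 above. Of the 4 markers too dim to test, Nos1 (70.6, 314, 43.9 and 39.4), Nxph1 (32.4, 321, 171 and 26.6) and Cnr1 (18.9, 62.4, 34.3 and 26.6) went the other way. Each was at least 1.5-fold above every other array at 2 h, while Erbb4 was highest at 1 h. The peptide somatostatin, Sst, gave 11706, 10161, 12619 and 12611, lowest at 2 h. The peptide Cck, also made by pyramidal cells, gave 15157, 15738, 13820.5 and 12095, highest at 2 h. The calcium buffer Calb2, at 352.5, 329.5, 94.4 and 73.5, was high at 1 and 2 h alike. Tac2 and Htr3a were likewise above the mean of the others at 2 h, by 0.31 and 0.26 log2. The transcription factors of interneuron development Dlx1 (285, 172, 274 and 345) and Dlx2 (174, 99.7, 174 and 165) were at least 1.5-fold below every other array at 2 h. They were 2 of 17 marker probe sets tested to lie outside, beside 9.97% of all, and none was at or below the floor on all 4 arrays. Whether the share of interneuron RNA differed at 2 h, and whether it bears on Slc32a1, was not tested.

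Tissue that a dissection could add to CA1 was read from markers as well. Of 4 choroid plexus genes with a probe set, 3 were tested, and their summed signals were 849, 1780, 622 and 977. Ttr and Igfbp2 were at least 1.5-fold above every other array at 2 h, whereas Kl was lowest there, at 177.5 against 309, 183 and 270.5, and Folr1 was too dim to test. Over 6 thalamus and habenula genes tested the sums were 1552.5, 2195, 1607 and 1555, highest at 2 h. Of their 7 probe sets, 3 were highest at 2 h. Among these, 1, for Ramp3 (57.4, 410, 217 and 207), was at least 1.5-fold above every other array, beside 5.72% of all probe sets. The pair for Prkcd differed, with 407, 625, 423 and 565 on one and a level 328, 336, 361 and 338 on the other. Calb2 and Tac1 stand in the interneuron list too. Of 3 dentate gyrus genes with a probe set only 1, Dsp, was tested. It gave 133, 90.5, 168 and 196, lowest at 2 h, and Prox1 and Tdo2 were too dim to test. Over 3 tested striatum genes, a region rich in GABA neurons, the sums were 2170, 1800, 2380.5 and 2573, lowest at 2 h. That sum rested mainly on 1 probe set of Penk, with 1874, 1476, 2098 and 2174, while another Penk probe set was 1.57-fold above the next array at 2 h and Pdyn was 0.42 log2 above the mean of the others.

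Markers of cell types native to CA1 were read in the same way. Over 4 tested CA1 pyramidal genes the sums were 9593, 7247.5, 10359 and 8830, lowest at 2 h, with a median log2 difference of -0.33 and 3 of 4 genes below 0. The largest part of each sum was Nrgn, with 5620, 3735, 5884 and 4594. The pair of Camk2a probe sets, too dim to test, went the other way and were highest at 2 h. They gave 18.5, 114, 24.4 and 7.5, and 41.0, 351, 195 and 43.3. Of 11 tested oligodendrocyte probe sets, from 5 genes, 9 were highest at 2 h, for Mog by only 1.03-fold over the next array. The share of all probe sets that were highest at 2 h was not counted. Only 2 were at least 1.5-fold above every other array, beside 5.72% of all. They were a pair for the myelin gene Mobp, 2.26-fold and 3.20-fold above the next array, though the brightest Mobp probe set was lowest there. A dim Mag probe set among the 9 would fall under the limit for testing without its 2 h signal. The sums over the 5 oligodendrocyte genes were 20703, 20740, 26776 and 21619, highest at 4 h and within the range of the others at 2 h. Of 11 tested astrocyte probe sets, 4 were highest and 3 lowest at 2 h, and the water channel Aqp4 was 3.42-fold above the next array on one probe set and 1.08-fold on the other. The sums over the 7 astrocyte genes were 19980, 21963, 20772 and 20660. Their largest parts were Aldoc, highest at 2 h, and Gja1, lowest there. The part of any of these cells or tissues in the GABA genes was not tested.

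The probe sets with 1 gene symbol whose profile over the 4 arrays was nearest to each gene were taken by Euclidean distance between log2 signals centred on their mean. For Slc32a1 these were Sox2, Smap1 and Eif4g3, at distances of 0.05, 0.07 and 0.07. For Gabbr1 they were Ctbp2, Dtna and Itgb1, at 0.06, 0.09 and 0.09, with 1 probe set without a single symbol passed over. For Gabra2 they were Rab10os, Sel1l and Dhrs3, at 0.13, 0.15 and 0.16, and for Gad2 Wfdc18, Speg and Zbtb16, at 0.28, 0.51 and 0.51. The Sox2 probe set, also of relaxed design, gave 1645, 871, 1361 and 1485, low at 2 h like Slc32a1. With 4 arrays and 7233 probe sets such likeness is a description only. Gad1 spanned under 1.5-fold, so no neighbours were taken for it.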

How the data were processed

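Per the labels, 4 total RNA samples, 1 per hour, were each put on 1 Affymetrix mouse array. The authors deposited 1 linear signal intensity per probe set and array, and no software is named in the sources used here. The 2% trimmed means were 500.3 on each array, so the values were used as deposited. No pair of arrays held identical values. Symbols came from the platform's table and were updated by gene identifier for 10817 of 10833 single-symbol probe sets. The 66 control probe sets were quality measures only. Signals under the pooled 20th percentile of the rest (36.9, the floor) were set to it before log2. The 7233 of 12422 probe sets with a mean log2 over the 4 arrays at or above the pooled 40th percentile (116.6) were tested. The 2 h array counted in that mean, so a dim probe set could pass through a high 2 h signal.

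Departure at 2 h was counted without a test, as a signal at least 1.5-fold outside the range of the 3 other arrays. The slope over hours was fitted with limma 3.58.1 in R 4.3.3 (mean-dependent prior, two-sided, Benjamini-Hochberg at 0.05); Python 3.11.15 did the rest. Steps were tested on simulated data. The members and lists were chosen with earlier results of these data known. All 5 genes were named, with GABA-list genes that lay outside on any array, the brightest gene of each role, and the 3 nearest profiles among probe sets with 1 symbol; other list genes and markers were picked for naming with their values in view. The number of arrays limits the precision.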

Additional observations from a re-analysis of the deposited data

Results flagged for a closer look

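Of the 21 tested probe sets of the GABA lists, 3 had 1 array far from the other three, as judged by the gap to the nearest array over the whole range of the 4 signals. This ratio passed Dixon's 95% critical value for Gabarap at 2 h (0.939), for Kcnj9 at 2 h on the probe set that gave 404 there (0.879) and for Gabrg3 at 4 h (0.915). Among all probe sets tested, 6.75% passed, and chance alone flags about 1 in 20. None of Gad1, Gad2, Slc32a1, Gabra2 and Gabbr1 passed, and the highest ratio among them was 0.705, for Slc32a1.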

How the results depend on the processing

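No paired analysis was possible because each hour had 1 array. Slc32a1 stayed below 0 at 2 h under every alternative run, from -0.87 to -0.76. The count of the 5 genes 1.5-fold outside the others at 2 h was 1, and also under other normalizations, floors and filters. It was 0 at a 2-fold threshold and 3 against the mean of the others (adding Gabra2 and Gabbr1), and ran from 1 to 2 with an array left out, 2 being without the 4 h or the 6 h array. The GABA list count of 5 of 21 was 2 of 14 with a stricter filter, 3 of 21 at 2-fold and 10 of 21 against the mean. With an array left out it ran from 6 to 7 of 21. The shares of all probe sets were then 7.99%, 3.12% and 22.0%, and 13.4% to 14.8% with an array left out. The median difference of the 5 genes, 0.48, was 0.17 with a floor at the 30th percentile and ran from 0.038 to 0.51 with an array left out. The low value came without the 1 h array, where Gad2 was under the floor. The count within a 1.5-fold range, 1, was 3 at a 2-fold range and ran from 1 to 3 with an array left out, 3 being without the 2 h array. Limma's 0 calls over all probe sets ran from 0 to 32 with an array left out. The 32, without the 2 h array and on 1 residual degree of freedom, held 0 of the 5 genes. Gad2 fell below the limit for testing with a floor at the 10th percentile or a stricter filter. Causes were not tested.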
